A study of Mus musculus with 59 samples.

Results

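The transcripts described here are those of 10 genes used as markers of Kupffer cells, the resident macrophages of the liver: Clec4f, Vsig4, Cd5l, Marco, Timd4, Adgre1, Cd68, Csf1r, Aif1 and C1qa. They were chosen by name, as the genes whose symbol was the only one given to a probe set in the array's annotation. That took 13 of the 45037 probe sets tested and 10 of 18193 genes, and of several probe sets of a gene, the one that was brightest on average over the 59 arrays stood for it. Liver RNA was measured on 1-colour Affymetrix arrays, 1 array per mouse liver sample, and every value below is a deposited log2 expression value per probe set. All mice were male C57BL/6, aged 6 weeks at the start, and had 2 weeks on their diet before treatment. A first experiment crossed diet (AIN-76A, made of purified ingredients, or LRD-5001, a standard chow) with 5 weeks of sodium arsenite. The levels of added arsenite were none, 10 ppb in water, 100 ppb in water and 10 ppb in food. In a second experiment, mice on AIN-76A were injected into the peritoneum with saline alone, with 1 mg/kg dexamethasone (a synthetic glucocorticoid), with 1 mg/kg sodium arsenite, or with both agents, and livers were taken 8 hours later. Every group held 5 arrays except AIN-76A with 100 ppb in water, which held 4, and arrays carry the letter of their replicate in the labels. The labels call the arrays of a group biological replicates, but nothing more is said of their origin, so a p-value here speaks only for the spread among these samples. With 4 or 5 arrays a group, precision is limited.

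Kupffer cells line the liver sinusoids, where they clear bacteria, dying cells and worn red cells from portal blood. Most are seeded before birth, and they depend on signalling through the CSF1 receptor and on cues from neighbouring endothelial, stellate and liver parenchymal cells. Among the markers, Clec4f (a C-type lectin), Vsig4 (a complement receptor) and Timd4 (a receptor for phosphatidylserine on dying cells) are typical of resident Kupffer cells in the mouse. Marco is a scavenger receptor, and Cd5l is a protein secreted by tissue macrophages. Csf1r is the receptor for the growth factors CSF1 and IL-34. Adgre1 (an adhesion receptor), Cd68 (a lysosomal glycoprotein), Aif1 (the actin-binding protein IBA1) and C1qa (a chain of complement C1q) are found in macrophages of many tissues.

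The factor PU.1, which binds ETS-type sites, and MAF factors are known regulators of macrophage genes. Promoter sequences of 7 of the 10 markers were matched by symbol in the RefSeq table for GRCm38.p6. For Adgre1, Csf1r and C1qa no promoter was matched. Of the 7, Clec4f, Cd5l and Aif1 passed an adjusted test in the main comparisons below. The 250 bases before the start sites of these 3 are printed 5′ to 3′ on the gene's strand. Capitals mark 3 motifs, searched on both strands: the ETS-type core GAGGAA with its reverse complement TTCCTC, the ETS-type core GGAAGT with its reverse complement ACTTCC, and the MAF site part TGCTGA with its reverse complement TCAGCA. The ETS-type cores can share letters.
Clec4f, chr6:83656117-83656366, minus strand: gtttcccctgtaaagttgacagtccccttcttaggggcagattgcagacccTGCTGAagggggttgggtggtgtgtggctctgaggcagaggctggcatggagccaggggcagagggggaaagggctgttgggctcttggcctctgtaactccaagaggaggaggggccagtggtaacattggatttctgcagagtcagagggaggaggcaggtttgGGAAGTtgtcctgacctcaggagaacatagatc
Cd5l, chr3:87357631-87357880, plus strand: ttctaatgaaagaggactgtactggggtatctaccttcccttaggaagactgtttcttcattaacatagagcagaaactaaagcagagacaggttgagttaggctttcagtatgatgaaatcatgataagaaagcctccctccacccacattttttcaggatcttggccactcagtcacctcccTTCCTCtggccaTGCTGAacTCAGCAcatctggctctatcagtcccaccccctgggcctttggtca
Aif1, chr17:35176053-35176302, minus strand: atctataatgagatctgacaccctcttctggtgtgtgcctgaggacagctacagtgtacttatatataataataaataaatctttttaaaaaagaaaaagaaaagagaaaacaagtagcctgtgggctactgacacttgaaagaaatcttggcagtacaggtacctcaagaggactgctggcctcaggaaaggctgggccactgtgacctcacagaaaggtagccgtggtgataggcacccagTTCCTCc
In Clec4f, GGAAGT lies 28 to 33 bases and TGCTGA 194 to 199 bases before the start. In Cd5l, a match to TGCTGA on each strand lies 41 to 54 bases and GAGGAA 61 to 66 bases before the start. In Aif1, the GAGGAA match is 2 to 7 bases before the start. GAGGAA was present in 5 of the 7 marker promoters (Aif1, Cd5l, Cd68, Marco and Vsig4) and in 23.3% of 32851 mouse promoters of this length. GGAAGT was present in 3 of 7 (Clec4f, Timd4 and Vsig4) against 19.7%, and TGCTGA in 3 of 7 (Cd5l, Clec4f and Timd4) against 16.1%. These matches describe letters in a short window and are not evidence of binding.

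All 10 markers were measured in every group, and their probe sets were brighter than 69.8% (Timd4) to 97.5% (Cd5l) of all probe sets. Clec4f and Vsig4 were each brighter than 95.1% of probe sets, whereas Timd4, also typical of resident Kupffer cells, was the dimmest of the 10 by this share. Signal of Timd4 (mean 3.47), Marco (mean 4.29) and Aif1 (mean 4.47) lay nearer the dim end, where log2 differences are compressed. Genes of other blood cells were also measured in these livers. The means over all arrays ran from 2.05 to 6.17 (Plac8) for 8 monocyte genes, from 2.10 to 7.88 (Lcn2) for 9 neutrophil genes, from 2.06 to 3.52 for 11 T and NK cell genes, and from 2.15 to 6.44 (Ighm) for 7 B cell genes. Of these lists, 1 gene each for monocytes, neutrophils and B cells had a mean of at least 5, and none for T and NK cells did. In whole-liver RNA, fewer Kupffer cells and less marker RNA per cell cannot be told apart.

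The saline array labelled E stood apart from all other arrays in these genes. It had the highest value of all 59 arrays for all 10 markers. Marco read 8.71 on saline E and 3.04 to 5.20 on the other 4 saline arrays, 28.4-fold above their mean. The differences for the other 9 markers ran from 2.6-fold (Clec4f) to 4.75-fold (Timd4). Only 1.09% of all probe sets lay at least 1 log2 unit above the other saline arrays on this array, and 17.6% were the highest of the 5 saline arrays there. Marker differences from saline are therefore given with and without it. Separately, the array with the lowest score on the first principal component was taken in each group, which gives 1 array per group by definition. These 12 are called the arrays that stood apart. Their upper quartile over all probe sets differed from the rest of their groups by -0.27 on average. The markers differed there by -0.52 on average for Vsig4 (lower in 10 of 12 groups), -0.60 for Timd4 (9 of 12) and -0.48 for Adgre1 (11 of 12). For the other 7 markers the average lay between -0.12 and 0.16.

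**Figure D1:**
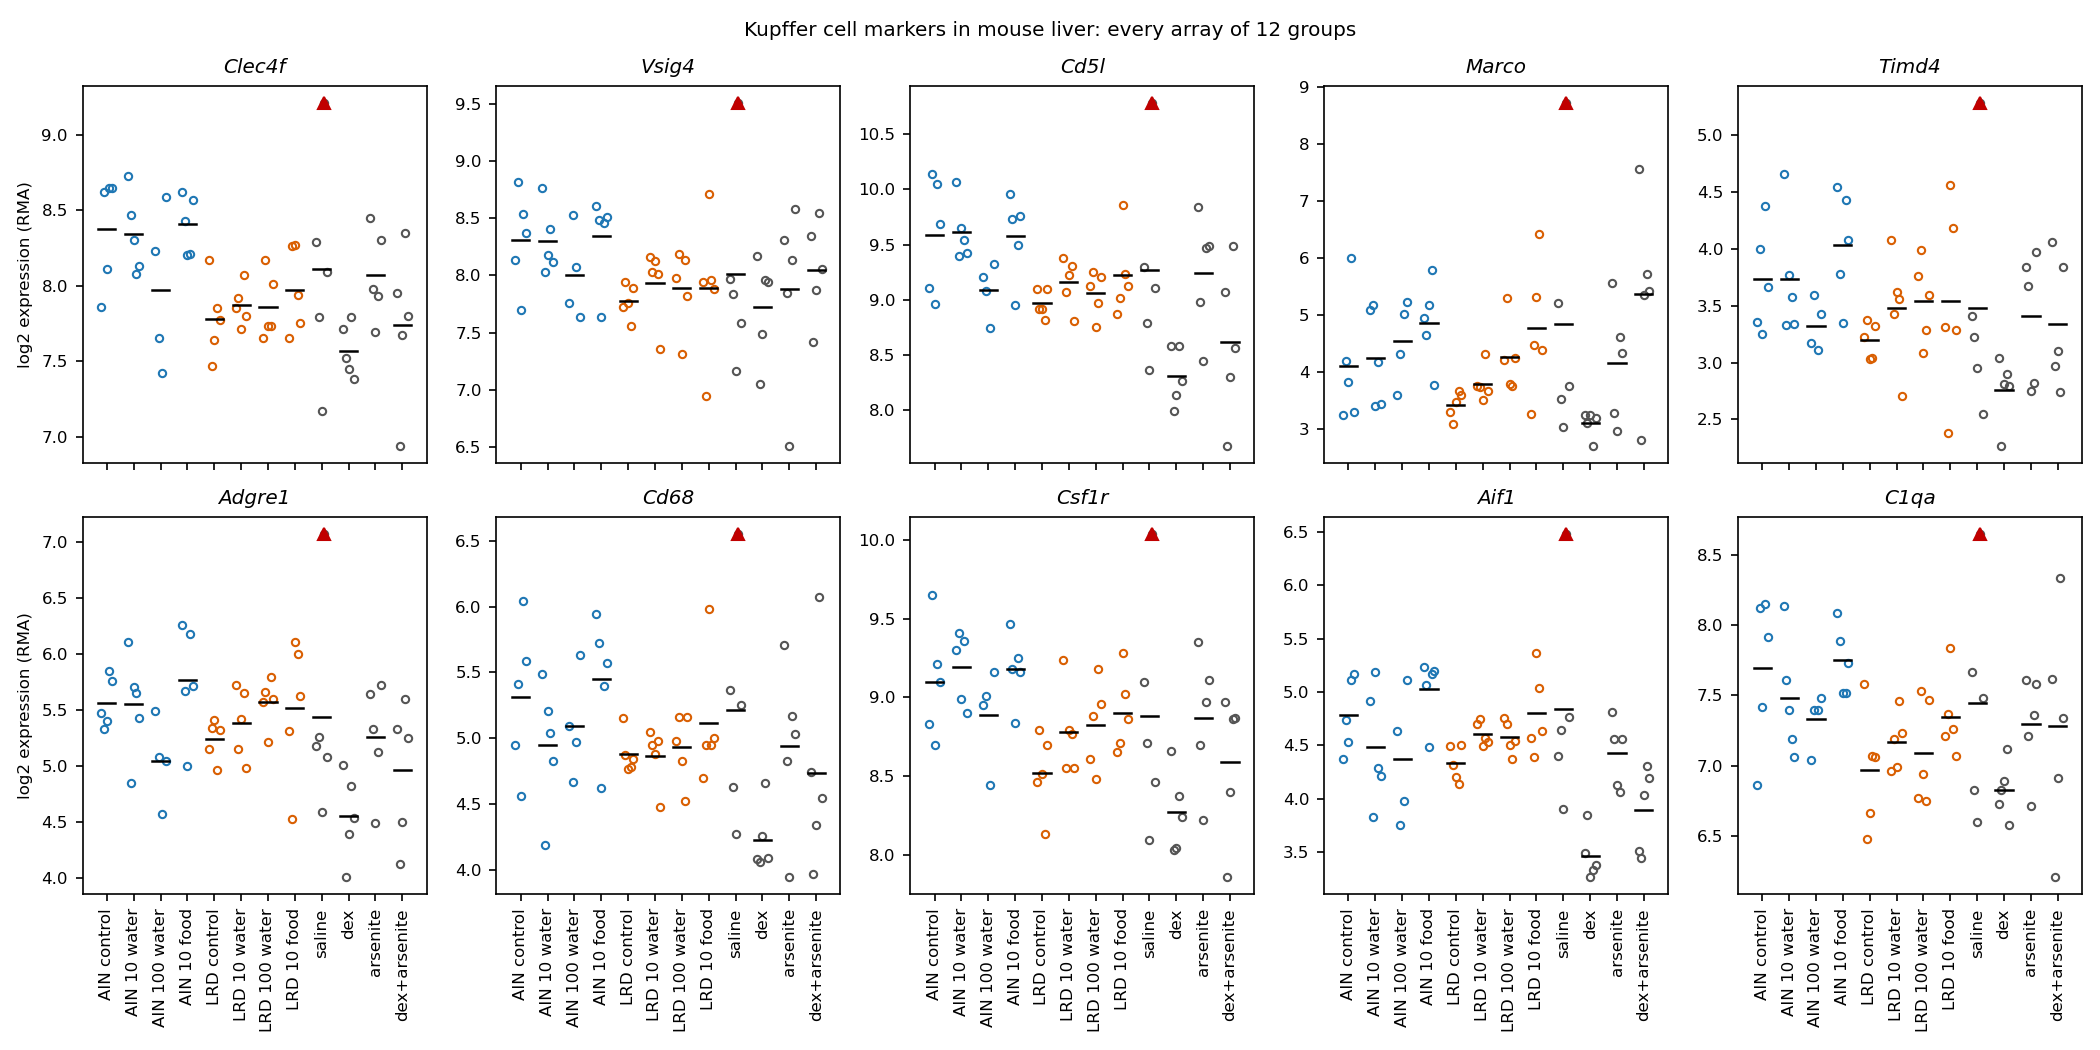
RMA log2 value (y axis) of each marker, 1 panel per gene, on every array of the 12 groups (x axis); circles are arrays, black lines are group means, colours show diet and injection, and the red triangle is saline E. The dexamethasone group has the lowest mean in all 10 panels, and saline E is the highest of the 59 arrays in each.

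Across the 12 groups, the mean was lowest after dexamethasone for all 10 markers. The highest mean was in AIN-76A mice with 10 ppb arsenite in food for 7 markers (Clec4f, Vsig4, Timd4, Adgre1, Cd68, Aif1 and C1qa). It was in AIN-76A mice with 10 ppb in water for Cd5l and Csf1r, and after dexamethasone with arsenite for Marco. The means spanned 0.62 log2 units for Vsig4, 0.83 for Clec4f, 1.31 for Cd5l and 2.27 for Marco. For 7 markers, all 11 pairs of neighbouring groups in this order differed by less than the larger of their SDs. For Timd4 that held for 10 of 11 pairs, and for Marco and Aif1 for 9 of 11.

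The first comparison was between the diets. Averaged over the 4 arsenite levels, 4 of the 10 markers were lower on LRD-5001 and none was higher (limma, Benjamini-Hochberg adjusted p under 0.05 over all probe sets). Over all probe sets, 1.59% were called lower and 4.26% in either direction. The markers called were Clec4f, Cd5l, Csf1r and C1qa, each 1.26-fold to 1.34-fold lower. All 10 differences lay below 0, as did 55.6% of all probe sets. Their median was -0.35, against -0.01 for all probe sets and 0.06 for the 8561 probe sets with a mean of at least 5.

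Clec4f read 7.42 at the lowest, 8.30 at the median and 8.73 at the highest of 19 arrays on AIN-76A, and 7.47, 7.82 and 8.27 of 20 arrays on LRD-5001. All 20 arrays on LRD-5001 lay below the median of AIN-76A, although the ranges overlapped. The difference was -0.40 (SE 0.09, limma adjusted p = 0.00508).
Cd5l had a lowest, median and highest value of 8.74, 9.50 and 10.14 on AIN-76A and of 8.75, 9.10 and 9.86 on LRD-5001. Of the LRD-5001 arrays, 19 of 20 lay below the AIN-76A median, and the exception was array D of the 10 ppb food group. The difference was -0.37 (SE 0.10, limma adjusted p = 0.0261).
Csf1r ran from 8.44 over a median of 9.16 to 9.65 on AIN-76A, and from 8.13 over 8.74 to 9.28 on LRD-5001. The ranges overlapped widely, with 17 of 20 LRD-5001 arrays below the AIN-76A median. Its difference was -0.33 (SE 0.09, adjusted p = 0.017). The other 2 probe sets of Csf1r pointed the same way without passing the test, at -0.25 (adjusted p = 0.0653) and -0.27 (adjusted p = 0.165).
C1qa ran from 6.86 over 7.52 to 8.15 on AIN-76A and from 6.48 over 7.13 to 7.84 on LRD-5001. It also had 17 of 20 LRD-5001 arrays below the AIN-76A median, and its difference was -0.42 (SE 0.11, adjusted p = 0.0217). The genes for the other chains of C1q had like values that missed the threshold, -0.42 for C1qc (adjusted p = 0.0528) and -0.35 for C1qb (adjusted p = 0.069).

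The other 6 markers did not pass. Vsig4 came nearest, at -0.37 (adjusted p = 0.0801), with 19 of 20 LRD-5001 arrays below the AIN-76A median. Marco differed by -0.38 (adjusted p = 0.519) and Timd4 by -0.27 (adjusted p = 0.457). Both are dim genes with wide spread, and the second probe set of Marco showed no difference (0.00). Cd68 differed by -0.25 (adjusted p = 0.373), Aif1 by -0.09 (adjusted p = 0.81) and Adgre1 by -0.05 (adjusted p = 0.904). No test compared the markers with each other. With all 12 groups in 1 fit, Clec4f alone was still called, and adjusted p was 0.107 for Csf1r, 0.0979 for C1qa and 0.181 for Cd5l. Csf1r was also not called without the 12 arrays that stood apart, at -0.23 (adjusted p = 0.12).

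**Figure D2:**
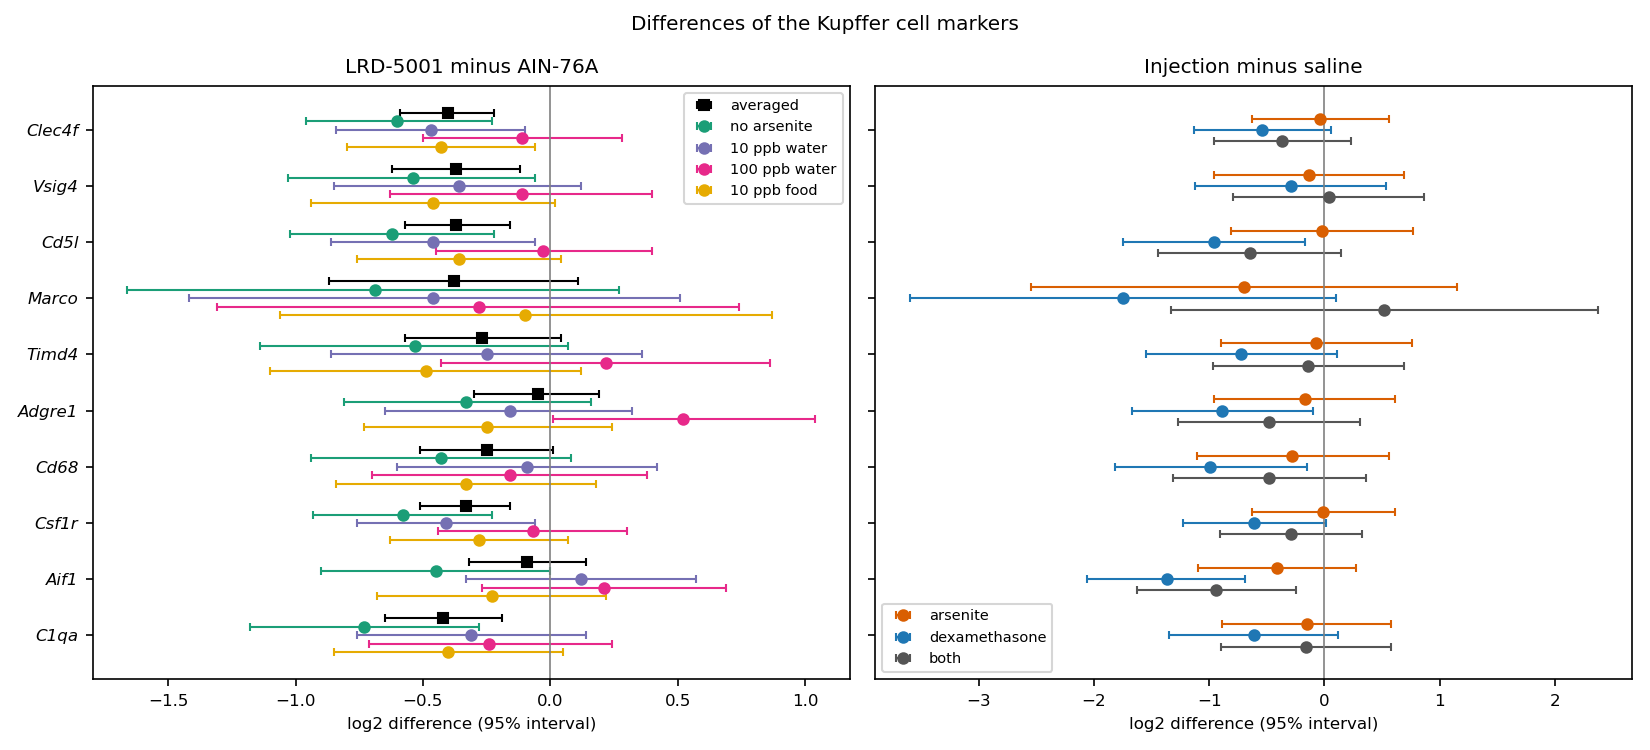
Differences in log2 units (x axis) with 95% intervals for the 10 markers (y axis), LRD-5001 minus AIN-76A on the left (averaged over arsenite levels, and at each of the 4 levels) and each injection minus saline on the right. All 10 averaged diet differences lie below 0, from -0.42 (C1qa) to -0.05 (Adgre1), and the intervals for the injections are wider.

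At single arsenite levels, no marker passed the adjusted test for diet (limma, 0 of 10 at each of 4 levels). In mice without added arsenite, 6 of 10 had an unadjusted p under 0.05 and all 10 lay below 0, with a median difference of -0.56. There, 0.568% of probe sets were called, 7.21% had an unadjusted p under 0.05 and 51.4% lay below 0. Clec4f read 7.86, 8.62, 8.11, 8.65 and 8.65 in AIN-76A controls and 8.17, 7.47, 7.64, 7.85 and 7.77 in LRD-5001 controls. The groups overlapped through the lowest AIN-76A array and the highest LRD-5001 array, both lettered B (difference -0.60, adjusted p = 0.178). C1qa showed the same overlap, with AIN-76A control B at 6.86 and LRD-5001 control B at 7.58. Without AIN-76A control B, 2 markers passed: C1qa at -0.94 (adjusted p = 0.0206) and Clec4f at -0.73 (adjusted p = 0.0477).

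With 10 ppb in water, the median marker difference between diets was -0.34, and 3 of 10, all lower, had an unadjusted p under 0.05, as did 7.46% of all probe sets. After adjustment 0.344% of probe sets were called. Clec4f read 8.73, 8.47, 8.30, 8.08 and 8.13 on AIN-76A and 7.85, 7.92, 7.71, 8.07 and 7.80 on LRD-5001. Its groups did not overlap, but the nearest arrays, at 8.08 and 8.07, almost met (adjusted p = 0.476). Cd5l did not overlap either, with a lowest AIN-76A array of 9.40 and a highest LRD-5001 array of 9.38 (adjusted p = 0.575). Groups that did not overlap, with LRD-5001 lower, made up 0.87% of all probe sets at this level. With 100 ppb in water the median marker difference was -0.09, with 7 of 10 below 0 (54.8% of all probe sets) and 2.05% of probe sets called. The 1 marker with an unadjusted p under 0.05 there, where 13.4% of all probe sets had one, was Adgre1, which was higher on LRD-5001 (0.52, unadjusted p = 0.0478). With 10 ppb in food it was -0.35, with all 10 below 0 (48% of all probe sets), 1 unadjusted p under 0.05 (4.93% of all probe sets) and 0.295% of probe sets called. The mean was lower on LRD-5001 at all 4 levels for 7 markers (not for Timd4, Adgre1 and Aif1), and for 10.6% of all probe sets.

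The change in the diet difference with arsenite was tested as an interaction, and no marker passed at any of the 3 exposures (limma, 0 of 45037 probe sets called in each). At 100 ppb in water 4 markers had an unadjusted p under 0.05, of 2757 probe sets that did, and the median interaction was 0.50. Adgre1 had the smallest p, with an interaction of 0.85 (SE 0.35, adjusted p = 0.762). At 10 ppb in water and in food, no marker had an unadjusted p under 0.05, of 1866 and 1128 probe sets that did. All 3 interactions share the control arrays of both diets.

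Other gene lists were read beside the markers in the averaged diet comparison. Of 31 other measured genes of macrophages and Kupffer cells, 4 were lower on LRD-5001, 1 was higher and 26 did not pass, with a median difference of -0.19. The gene furthest from 0 among them was Mpeg1, a pore-forming protein of phagocytes, at -0.92 (adjusted p = 2.07e-06). Fcer1g and Tyrobp, adaptor proteins for activating immune receptors, were lower by the same test, at -0.49 (adjusted p = 0.00146) and -0.36 (adjusted p = 0.0139). Slc40a1, the iron exporter ferroportin, was higher, at 0.47 (adjusted p = 0.0102). None of 8 genes for ligands of the CSF1 receptor and other niche signals passed, with a median of -0.03. Only 2 of these 8 had a mean of at least 5, so most were dim, where differences are compressed.

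Some genes from the lists for other blood cells also differed between diets. Of 9 neutrophil genes 3 were lower on LRD-5001: Lcn2 (-3.34), S100a9 (-1.30) and S100a8 (-1.25). All 9 lay below 0, with a median of -0.16. Lcn2, which is also in the list of glucocorticoid targets, was the only neutrophil gene with a mean of at least 5. The summed level of the neutrophil list, in log2 units, ran from 5.90 to 12.62 on AIN-76A and from 5.63 to 11.30 on LRD-5001. Each summed level adds linear values, so the brightest gene of a list, here Lcn2, weighs most. That range is therefore not a measure of neutrophil content. Of 8 monocyte genes Plac8 was lower, at -0.62 (adjusted p = 0.0147), and the list summed to 6.27 to 7.70 on AIN-76A and 6.15 to 7.19 on LRD-5001. Of 7 B cell genes Ighm, the heavy chain of IgM, was lower, at -2.40 (adjusted p = 2.16e-07). The B cell list had 4 of 7 below 0, with a median of -0.04, and Ighm alone had a mean of at least 5. That list summed to 6.16 to 10.67 on AIN-76A and 5.90 to 7.36 on LRD-5001. Of 10 genes of MHC class II and dendritic cells, H2-Aa (0.76), H2-Eb1 (0.68) and H2-Ab1 (0.49) were higher on LRD-5001. No gene passed of 11 for T and NK cells, 13 for endothelium, 12 for stellate cells and fibroblasts, 5 for bile duct and 3 for red cells. A mean of at least 5 was reached by 0 of the 5 bile duct genes and 1 of the 3 red cell genes. It was reached by 6 of 13 for endothelium and 5 of 12 for stellate cells and fibroblasts. Of 12 hepatocyte genes 1 was higher and 2 were lower, with a median of -0.02. Of 20 glucocorticoid targets 4 were lower, Lcn2 again among them. The part of these other cells in the marker differences was not tested.

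Within each diet, 5 weeks of arsenite were compared with no added arsenite, and no marker passed in any of the 6 comparisons (limma, adjusted over all probe sets). Over all probe sets, 0.00888% were called for 100 ppb in water on AIN-76A and 0% in each of the other 5 comparisons. With 100 ppb in water on AIN-76A, 9 of 10 markers lay below 0 (49.1% of all probe sets), with a median of -0.39, and 3 had an unadjusted p under 0.05, of 3996 probe sets that did. Cd5l read 9.21, 9.08, 8.74 and 9.32 with arsenite and 9.11, 10.14, 8.96, 10.05 and 9.69 without. Of the arsenite arrays 3 lay in the lower part of the control range and 1 lay below it (difference -0.51, SE 0.21, adjusted p = 0.442). Adgre1 differed by -0.52 (adjusted p = 0.559) and Clec4f by -0.41 (adjusted p = 0.53). On LRD-5001 with the same dose, all 10 differences lay above 0, where 49.2% of all probe sets lay below it, with a median of 0.18 and no unadjusted p under 0.05, of 1055 probe sets that had one.

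Marco, the scavenger receptor, had the highest of the 10 marker differences in every one of these comparisons, on both diets. It also had the widest spread within groups of the 10 markers (median SD 0.80). On LRD-5001 it read 3.30, 3.09, 3.47, 3.66 and 3.59 in controls and 3.27, 4.47, 5.31, 6.42 and 4.38 with 10 ppb in food. Of the food arrays 4 of 5 lay above every control and 1 lay among them (difference 1.35, SE 0.48, unadjusted p = 0.00759, adjusted p = 1). With 100 ppb in water it read 4.21, 5.29, 3.78, 3.75 and 4.24, all above the controls (difference 0.83, adjusted p = 1), and 0.335% of probe sets separated in this direction. In the food group 3 markers had an unadjusted p under 0.05, of 1031 probe sets that did, and the median difference was 0.31. The 3 comparisons on LRD-5001 share 1 set of controls. With 10 ppb in water on LRD-5001, 10 ppb in water on AIN-76A and 10 ppb in food on AIN-76A, no marker had an unadjusted p under 0.05. The numbers of probe sets that did were 1054, 2178 and 1635, and the median marker differences were 0.19, -0.02 and 0.11.

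The second experiment compared each injection with saline. Fkbp5, a direct target of the glucocorticoid receptor, was higher after dexamethasone by 2.98 (SE 0.55, limma adjusted p = 0.00565), and by 3.04 (adjusted p = 0.0144) without saline E. Of 20 glucocorticoid targets it was the only one called higher, and Pck1 was called lower (-1.68, limma adjusted p = 0.0295). The other 18 did not pass, with 7 of the 20 below 0 and a median of 0.36. Without saline E, 1 was called higher and 0 lower. After dexamethasone alone, 1 of the 10 markers was lower, Aif1, and none was higher. Of all probe sets 0.753% were called lower and 1.74% in either direction. All 10 marker differences lay below 0, with a median of -0.80, and 54.3% of all probe sets lay below 0. These differences rest in large part on saline E.

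Aif1 read 3.49, 3.85, 3.27, 3.33 and 3.38 after dexamethasone and 4.40, 4.64, 3.90, 6.48 and 4.77 after saline, where 6.48 is saline E. Every dexamethasone array lay below every saline array, as did 1.93% of all probe sets in this direction, but dexamethasone C at 3.85 and saline C at 3.90 almost met. The difference was -1.37 (SE 0.33, limma adjusted p = 0.0361), and -0.96 (SE 0.21, adjusted p = 0.0296) without saline E. Without saline E, 0.449% of probe sets were called lower and 1.08% in either direction. The call was lost without dexamethasone A (adjusted p = 0.0712), D (0.0948), E (0.0843) or F (0.0878), or saline F (0.0759), with differences from -1.39 to -1.33. It was also lost with only the groups compared in the fit (adjusted p = 0.103) and without the arrays that stood apart (-1.49, adjusted p = 0.0709).

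Cd5l read 8.58, 7.99, 8.14, 8.58 and 8.26 after dexamethasone and 9.30, 8.79, 8.36, 10.78 and 9.11 after saline. Saline C lay within the dexamethasone range and the other 4 saline arrays above it. The difference was -0.96 (adjusted p = 0.294) and -0.58 (adjusted p = 0.595) without saline E. Marco read 3.25, 3.10, 3.25, 2.71 and 3.19 after dexamethasone and 5.20, 3.53, 3.04, 8.71 and 3.76 after saline. Its difference of -1.75 (adjusted p = 0.489) became -0.78 (adjusted p = 0.803) without saline E. The remaining differences did not pass either, and ran from -0.54 for Clec4f (adjusted p = 0.517) through -0.61 for Csf1r and C1qa, -0.72 for Timd4 and -0.89 for Adgre1 to -0.99 for Cd68 (adjusted p = 0.315). Without saline E they were -0.26 for Clec4f, -0.32 for Csf1r, -0.31 for C1qa, -0.27 for Timd4, -0.48 for Adgre1 and -0.65 for Cd68. Vsig4 changed sign, from -0.29 to 0.08. For 9 of the 10 markers, all but Aif1, leaving out saline E moved the difference by over 1.5 times or reversed it. Without that array 9 of 10 still lay below 0, with a median of -0.40 and with 53.9% of all probe sets below 0.

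**Figure D3:**
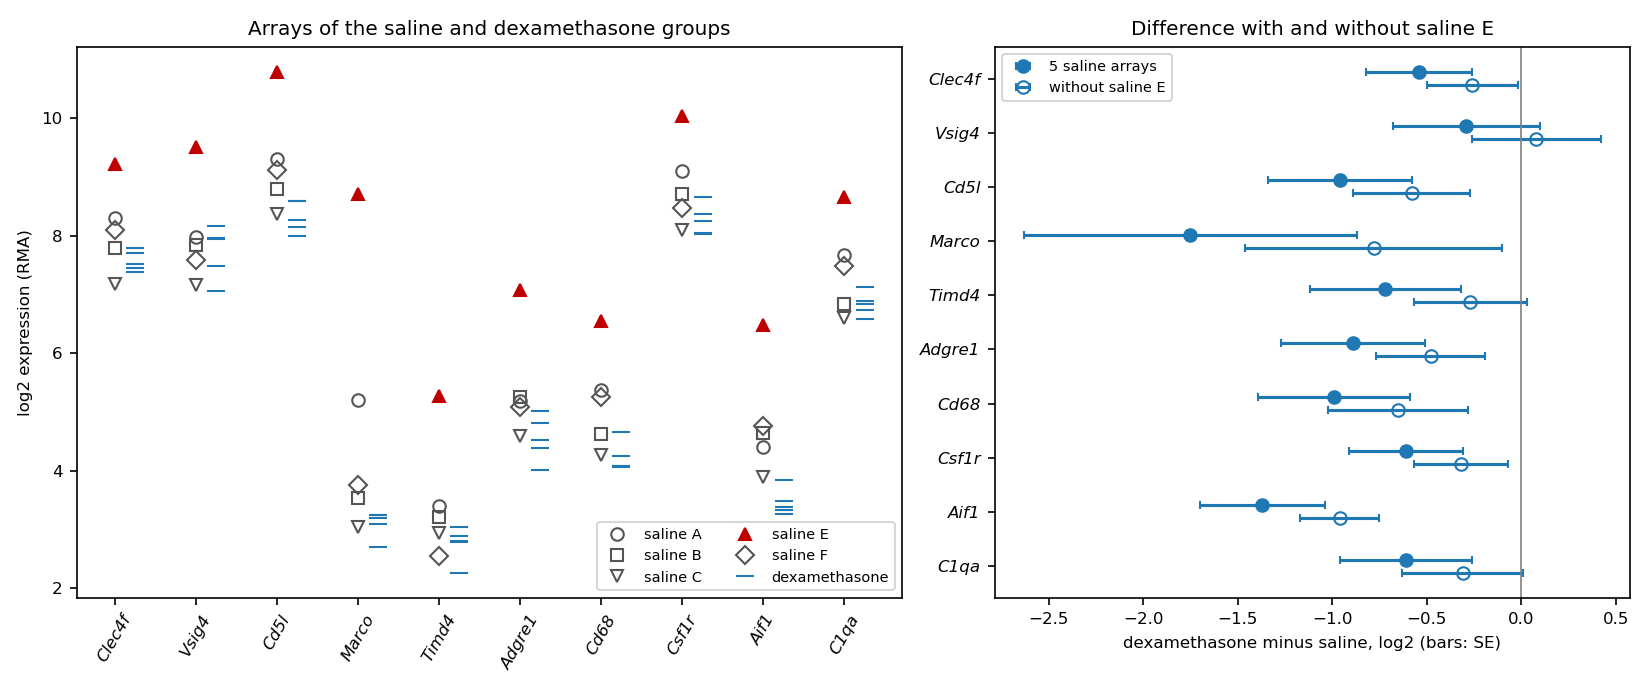
Left, RMA log2 value of the 10 markers on the 5 saline arrays, drawn by letter, with dashes for the dexamethasone arrays; right, dexamethasone minus saline difference in log2 units ± SE with all arrays and without saline E. Saline E is the highest saline array for each marker, and the Marco difference moves from -1.75 to -0.78 without it while Aif1 moves from -1.37 to -0.96.

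Among the 31 other macrophage genes, 1 was lower after dexamethasone and 30 did not pass, with 25 below 0 and a median of -0.63. The gene called was Il18, the precursor of a cytokine of the IL-1 family, at -1.24 (SE 0.27, adjusted p = 0.0181). Without saline E it was not called (-1.17, adjusted p = 0.0581), and the list had 0 called, 23 below 0 and a median of -0.34. With all arrays Mpeg1 at -1.15 (adjusted p = 0.0801), Irf8 at -0.83 (adjusted p = 0.0866) and Msr1 at -0.88 (adjusted p = 0.211) did not pass, and without saline E these were -0.94, -0.61 and -0.62. No gene was called among 8 for monocytes, 9 for neutrophils, 10 for MHC class II and dendritic cells, 7 for B cells, 11 for T and NK cells, 13 for endothelium, and 8 for the Kupffer niche (limma). Of the 9 neutrophil genes 8 lay below 0, with a median of -0.59. Without saline E 5 of 9 did, with a median of -0.03. S100a9 and S100a8 had the smallest p of that list with all arrays. S100a9 read 2.95, 2.72, 2.53, 2.99 and 3.26 after dexamethasone and 4.95, 5.18, 6.61, 10.19 and 4.72 after saline. S100a8 read 2.64, 3.17, 2.37, 2.62 and 2.69 against 3.85, 4.44, 5.69, 9.58 and 3.81. In both genes every dexamethasone array lay below every saline array, saline E included or not. With all arrays, 1.93% of all probe sets separated in this direction, and neither gene passed the adjusted test. The differences were -3.44 for S100a9 (adjusted p = 0.171) and -2.78 for S100a8 (adjusted p = 0.278), or -2.48 (adjusted p = 0.405) and -1.75 (adjusted p = 0.574) without saline E. The brightest gene of the neutrophil list, Lcn2, differed by -0.04 (adjusted p = 0.996) and makes up most of the summed level, which ran from 9.82 to 11.01 after dexamethasone and from 7.34 to 12.38 after saline. The monocyte list summed to 6.14 to 6.80 and 6.61 to 9.02, where 9.02 is saline E and the other 4 saline arrays reached 6.71 at most. The part of these cells in the Aif1 difference was not tested.

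After arsenite alone no marker passed, and none had an unadjusted p under 0.05 (limma, 1414 probe sets had one and 0% were called). The median difference was -0.14, with all 10 below 0 (49.5% of all probe sets). Marco read 5.56, 3.28, 2.97, 4.62 and 4.33 after arsenite, overlapping most saline arrays, and its difference of -0.70 became 0.27 without saline E. Without that array the differences ran from -0.00 (Aif1) to 0.38 (Timd4), with 1 of 10 below 0 and a median of 0.24, so 9 of 10 signs turned. After both agents no marker passed (limma, 1 unadjusted p under 0.05 among the markers and 4406 over all probe sets, 0.926% called). Aif1 read 3.51, 3.44, 4.03, 4.31 and 4.19, with a mean of 3.90 between those of dexamethasone (3.47) and saline (4.84) (difference from saline -0.94, adjusted p = 0.262). Without saline E that difference was -0.53 (adjusted p = 0.416). The median over the markers was -0.33 with 8 of 10 below 0, and -0.03 with 6 of 10 below 0 without saline E. No marker passed without that array either (limma, 2 unadjusted p under 0.05 among the markers and 4021 over all probe sets). Marco moved from 0.52 to 1.49, Vsig4 from 0.04 to 0.41, Timd4 from -0.14 to 0.31 and C1qa from -0.16 to 0.14. The other differences moved from -0.65 to -0.27 for Cd5l, -0.48 to -0.14 for Cd68, -0.48 to -0.07 for Adgre1, -0.37 to -0.09 for Clec4f and -0.29 to -0.00 for Csf1r.

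Marco after both agents read 7.56, 2.80, 5.35, 5.71 and 5.42. Of these, 4 arrays lay above all 5 dexamethasone arrays, and array C lay within them. The difference between both agents and dexamethasone alone was 2.27 (SE 0.88, limma unadjusted p = 0.0189, adjusted p = 0.999). It uses no level from saline, but its SE pools the spread of all 4 injected groups, saline E included. No probe set was called for it (0%), and 1744 had an unadjusted p under 0.05. All 10 markers lay above 0 in this comparison, where 48.3% of all probe sets lay below it, with a median of 0.42. Dexamethasone added to arsenite gave 0 of 10 markers (limma, none with an unadjusted p under 0.05, 4590 probe sets with one, 0.881% called) and a median of -0.24. Its SEs pool the same spread, and neither comparison is given without saline E. The interaction of the agents was 2.96 for Marco (SE 1.25, adjusted p = 1), the sole marker with an unadjusted p under 0.05 of 1560 probe sets (0% called), and 2.00 (adjusted p = 1) without saline E. The median interaction over the markers was 0.60, and 0.19 without that array.

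The markers varied together from mouse to mouse within groups. After each group's mean was removed, the 45 pairs of markers had a Pearson r from 0.48 to 0.90 over 59 arrays, with a median of 0.70. Without saline E the range was 0.27 to 0.89 and the median 0.60, and without the 12 arrays that stood apart the median was 0.75. Over the 12 group means r ran from 0.29 to 0.95, with a median of 0.84. All points of a correlation share their arrays and the RMA normalization, so these values describe joint variation only.

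**Figure D4:**
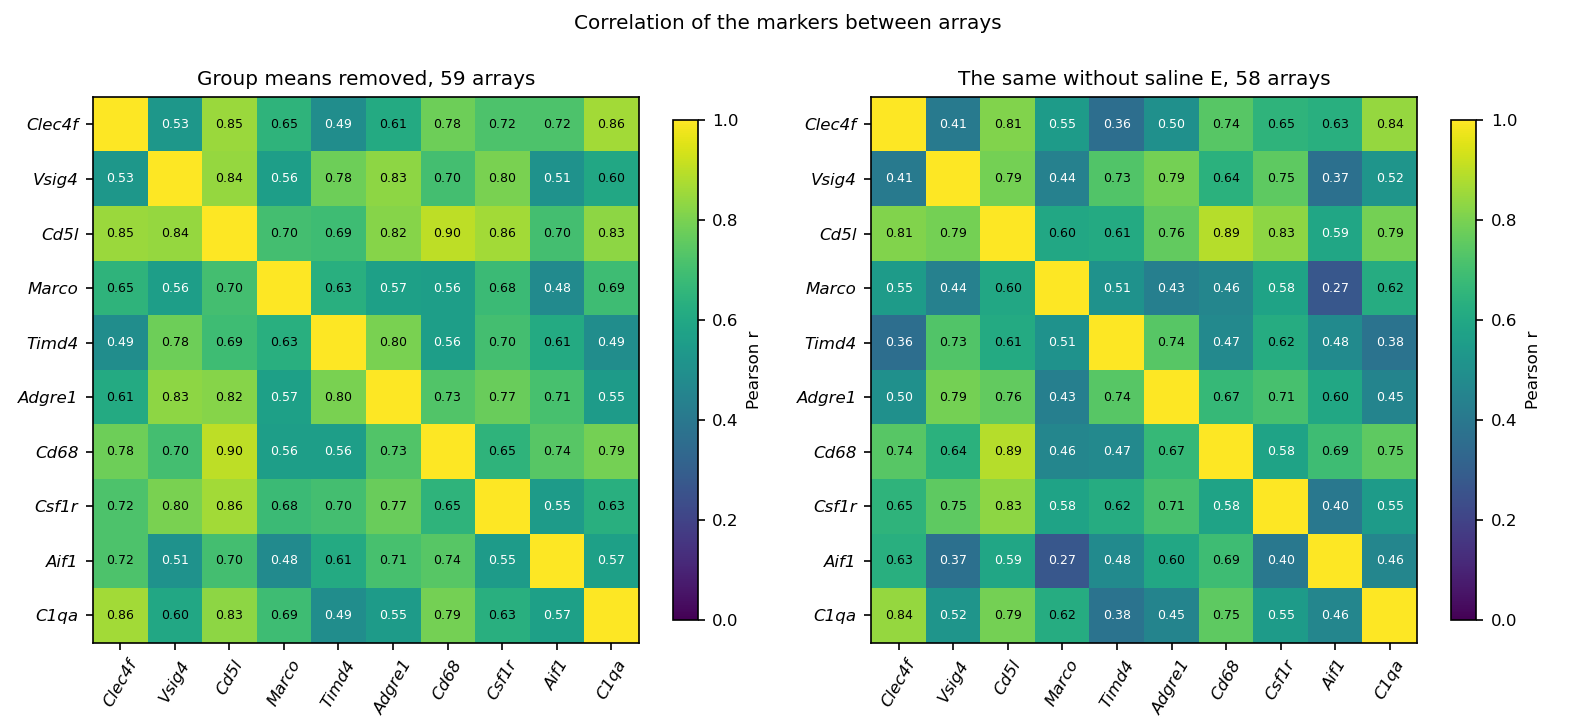
Pearson r between each pair of the 10 markers (both axes) over arrays after removal of group means, for all 59 arrays and for the 58 without saline E. Median r is 0.70 with all arrays and 0.60 without saline E.

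The 8 genes outside the markers whose group-centred values followed the mean of the markers most closely were taken from 5488 candidates with a mean of at least 5. They were Wfdc17 (r = 0.89 over 59 arrays), Tmsb4x (0.87), C1qc, C1qb and Fcer1g (0.86 each), Cyba (0.85), and Cd52 and Cybb (0.83 each). Without saline E their r ran from 0.76 to 0.85. C1qb and C1qc encode the partner chains of C1qa, Cyba and Cybb the subunits of the phagocyte NADPH oxidase, and Tmsb4x thymosin beta 4, which binds actin. Of the 8, 4 belong to the list of other macrophage genes. In the averaged diet comparison Fcer1g and Tmsb4x were lower on LRD-5001 (Tmsb4x -0.27, adjusted p = 0.00325) and the other 6 did not pass. After dexamethasone none of the 8 passed, with the smallest adjusted p for Cd52 (0.0737, difference -1.49).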

How the data were processed

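Liver RNA of 59 mice was measured on Affymetrix arrays. The authors deposited log2 expression values per probe set made with RMA, per the submitters' processing notes; its version and settings were not stated in these notes. RMA compresses differences of dim probe sets. Of 45101 probe sets, 64 controls were left out. Symbols came from the platform annotation, where 34945 of the probe sets tested had 1 symbol, and all 10 markers were found in the RefSeq table by gene identifier. Group means were fitted in limma 3.58.1 (R 4.3.3) on 39 arrays of the 5-week experiment and, separately, 20 arrays of the injection experiment, without covariates. Each of 20 contrasts was adjusted by Benjamini-Hochberg over 45037 probe sets, with a threshold of 0.05. The fits were tested on simulated data. Alternatives covered normalization, filters, samples fitted, probe set choice, the replicate block and leaving out each array. The markers and gene lists were chosen with earlier results of these data known. All 10 markers are named in each main contrast; of other lists at most 4 genes with the smallest p are named. No 2 arrays were duplicates (highest correlation 0.994).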

Additional observations from a re-analysis of the deposited data

Results flagged for a closer look

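Of 120 combinations of marker and group, 7 had an array far from the others of its group by Dixon's test at the 95% level, and chance gives about 1 in 20 groups. For Vsig4 these were the low values of array D of AIN-76A with 10 ppb in food (7.64) and array F of LRD-5001 with 10 ppb in water (7.36), and both are among the 12 arrays that stood apart. For Aif1 it was the same array D of AIN-76A with 10 ppb in food (4.48), the lowest of its group. For Cd68 they were high values of LRD-5001 control B (5.15), which is also among those 12 arrays, and of array D of LRD-5001 with 10 ppb in food (5.98). For Marco it was the low value of dexamethasone E (2.71), and for Adgre1 the high value of saline E (7.07).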

How the results depend on the processing

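Of 20 comparisons, the count of markers called stayed within 1.5 times of the reported one under the alternatives run, except for 3. For the averaged diet comparison it was 1 with all 12 groups in 1 fit, and 4 to 5 when 1 array at a time was left out. For diet in controls it was 0 to 2 over arrays left out, with 2 without AIN-76A control B. For dexamethasone it was 2 with all 12 groups in 1 fit (Cd5l added, adjusted p = 0.0459), 0 with only brighter probe sets (which left 6 markers), 0 with only the groups compared, 0 without the arrays that stood apart, and 0 to 1 over arrays left out. With the replicate block it was also 0, since Aif1 had an adjusted p of 0.0912 (-1.35, SE 0.36). Over the other 17 comparisons, leaving out an array always gave 0 calls. Same-letter arrays of different groups had a mean correlation of 0.01 (from -0.63 to 0.70 over 267 pairs). Different-letter arrays of different groups had the same mean, 0.01 (from -0.65 to 0.74 over 1328 pairs). These pairs were pooled over both experiments, so pairing by letter within 1 experiment was not tested. The replicate block changed no other count of calls by over 1.5 times. Vsig4 was called in the averaged diet comparison under quantile normalization (-0.41, adjusted p = 0.0214), a common median of brighter probe sets (-0.44, 0.0105), only brighter probe sets (-0.37, 0.0293), and the arrays apart as a block (-0.38, 0.0175) or left out (-0.30, 0.0488). Signs turned for Marco with its second probe set (0.00) and Adgre1 without array C of LRD-5001 with 10 ppb in food (0.01) in the averaged diet comparison, and for Vsig4 without saline E (0.08) after dexamethasone. Over arrays left out, these differences ran from -0.10 to 0.01 for Adgre1 and from -0.51 to 0.08 for Vsig4. The cause was not tested. A fit on only the groups compared is no alternative for the averaged diet comparison and the interaction of the injections, which use all groups. Signal near the background limits Timd4, Marco and Aif1.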

Other observations

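Saline E, the array with the highest value of every Kupffer cell marker, was also the highest of all 59 arrays for 16 of 31 other macrophage genes, 6 of 9 neutrophil genes, 4 of 8 monocyte genes and 4 of 11 T and NK cell genes, and for 0 of 7 B cell genes. Of all probe sets, 17.6% were the highest of the 5 saline arrays on saline E. The share highest of all 59 was not counted and can be no larger. None of the T and NK cell genes had a mean of at least 5. Ngp, a neutrophil granule protein, read 7.33 on saline E and 2.04 to 2.46 on the other 4 saline arrays. S100a8 and S100a9, the subunits of calprotectin, read 9.58 and 10.19 against 3.81 to 5.69 and 4.72 to 6.61. Camp, the precursor of cathelicidin, read 5.72 against 1.93 to 2.37. Mpo, the myeloperoxidase of granulocyte precursors, read 4.97 against 1.90 to 2.29. The monocyte list summed to 9.02 in log2 units against 6.61 to 6.71, with Chil3 at 7.39 against 2.00 to 2.42, Plac8 at 8.22 against 5.93 to 6.13, S100a4 at 3.75 against 2.18 to 2.45 and F13a1 at 3.33 against 2.06 to 2.33. Ccr2 (2.96 against 2.68 to 2.92), Cx3cr1 (2.86 against 2.40 to 2.59), Ms4a4c (2.95 against 2.36 to 2.66) and Itgam (2.27 against 1.99 to 2.33) were not the highest of the 59 there. The T and NK cell list summed to 6.66 against 6.28 to 6.38. Cd3d, Cd8a, Gzmb and Ccl5 were the highest of the 59 (Ccl5 3.97 against 2.82 to 3.30), and Cd3e was not (3.17 against 3.16 to 3.47). The B cell list summed to 8.18 against 6.08 to 8.62. In it Jchain read 5.05 against 2.33 to 2.87, rank 2 of the 59. Ighm lay within the other saline arrays (7.76 against 4.90 to 8.45), and Cd79a lay just below them (2.50 against 2.52 to 3.09). The summed level of hepatocyte genes was 16.22 there and 16.23 to 16.44 on the other saline arrays. The values of 1 array have no replicate.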
